A study of Mus musculus with 44 samples.

Results

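Fth1, Slc11a1 and Trf are 3 genes of iron handling, taken by name from a deposited table of 3613 genes and described over 44 single mouse cells. Fth1 encodes the heavy chain of ferritin, the protein shell that oxidises and stores iron. Slc11a1 encodes NRAMP1, a transporter of phagocytes that moves divalent metals, iron among them, out of the phagosome. Trf encodes transferrin, the secreted protein that carries ferric iron in the blood and that the liver makes in bulk. Macrophages take up old red cells, break down haem, and either store the freed iron in ferritin or release it, so iron handling is one of their best known functions.

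The cells came from calvaria, the flat bones of the skull, of newborn C57BL/6J mice. They were cultured for 16 h with 50000 added megakaryocytes (20 cells, all on plate 7, here with-MK cells) or without megakaryocytes (24 cells, all on plate 3, here without-MK cells). From both cultures cells were sorted as CD45+, F4/80+ and CD41-, a gate meant for bone-resident macrophages, and captured singly for full-length cDNA sequencing. The groups follow the treatment field of the labels, although the titles of the without-MK cells carry the same culture abbreviation, with MK in it, as the others. Plate, capture and treatment cannot be told apart. Since the labels tie no cell to a culture or mouse, each group counts as 1 sample, its cells do not serve as replicates, and the groups were compared without a test. Cell numbers only name cells.

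Library reads per cell were 69181 at the lowest, 834834.5 at the median and 1212604 at the highest in with-MK cells, against 270537, 527930 and 714465 in without-MK cells. With-MK cells 11 and 16 were the 2 with under 100000 library reads. Levels are given as CPM, the reads of a gene per 1000000 library reads of the cell, both worked back from the deposited values. Summed CPM of 20 listed macrophage markers was 2710 at the lowest, 24141 at the median and 58778 at the highest in with-MK cells, against 0, 10.7 and 176 in without-MK cells, where 6 of the 20 (Aif1, C1qb, C1qc, Fcgr1, Fcgr3 and Spi1) had no read. The sort-marker genes Ptprc (CD45) and Adgre1 (F4/80) had a read in 20 and 17 of the 20 with-MK cells, against 1 of the 24 without-MK cells each. Summed CPM of 7 listed osteoblast and fibroblast markers was 3.88, 11.2 and 196 in with-MK cells, against 4276, 10051 and 98080 in without-MK cells. Summed CPM of 3 listed granulocyte markers, mostly Mmp8, was 0, 1186 and 3622 in with-MK cells, against 0, 0 and 37.7 in without-MK cells. The without-MK cells thus lack the macrophage markers that their sort label implies, and every difference below lies between cells that also differ in these markers. The part of that difference in the results was not tested.

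Ferritin messages carry an iron-responsive element in the 5′ UTR, a hairpin that iron regulatory proteins bind when the cell is short of iron and that then holds back translation. The ferritin element is shown because it sets Fth1 and its partner Ftl1, the ferritin light chain gene, apart from the other members, and because it makes ferritin protein follow more than the message level measured here. The sequences are the 30 bases around the element in the GENCODE M21 transcripts, with the loop letters CAGTG in capitals. The Fth1 site lies at chr19:9982732-9982761 on the plus strand of mm10, and the Ftl1 site at chr7:45459778-45459807 on the minus strand.
Fth1: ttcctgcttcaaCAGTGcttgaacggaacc
Ftl1: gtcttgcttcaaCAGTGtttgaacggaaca
In both sites all 5 stem positions on each side of the loop can pair. Taking the lowest-numbered GENCODE transcript of each gene, 112 of the 19434 with a 5′ UTR (0.576%) held CAGTG with at least 4 of 5 paired stem positions on the transcript strand. Those of Slc11a1 and Trf held no such match.

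All 3 members were higher in with-MK cells than in without-MK cells. Pooled over cells, Fth1 was 8.67-fold, Slc11a1 161-fold and Trf 2266-fold higher. At least 2-fold higher pooled CPM was found for 24.4% of the 3271 genes that were read in 10 or more of the 44 cells, so direction alone is no mark of these genes. None of the 3 had every with-MK cell above every without-MK cell, as 0.489% of the tested genes had, or every one below, as 0.214% had. The members differed among themselves in how the gap arose. Fth1 was read in every cell of both groups. Slc11a1 was read in most with-MK cells and in few of the others, and Trf was read in fewer than 10 of the 20 with-MK cells, with nearly all reads in 3 of them.

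**Figure D1:**
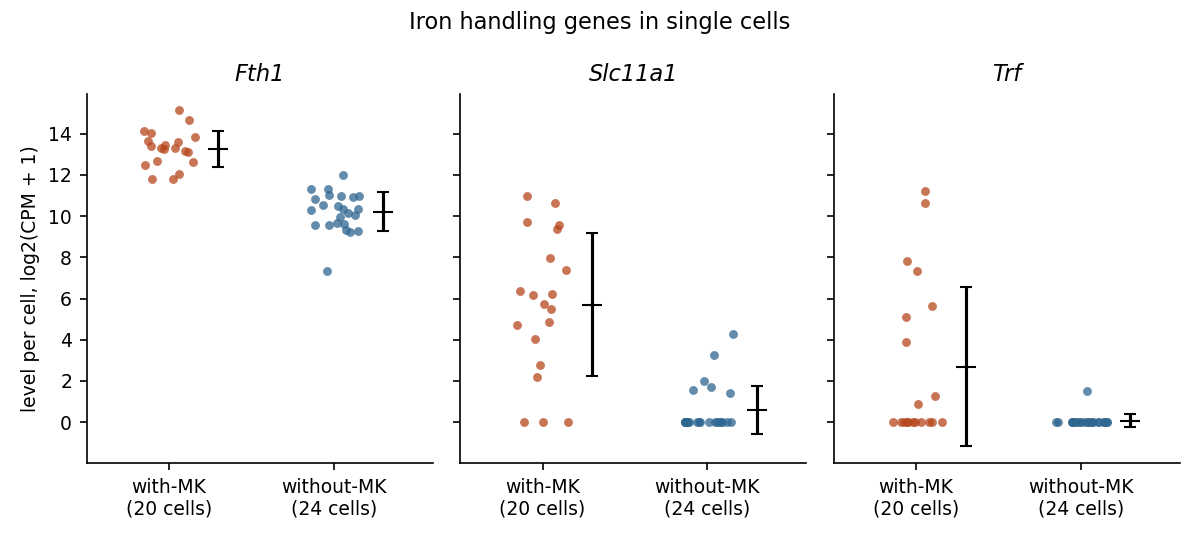
Level of Fth1, Slc11a1 and Trf in each cell as log2(CPM + 1), with the 20 with-MK cells left of the 24 without-MK cells. Points are cells and the bars beside them show the mean and SD over cells. Fth1 is at 3544 CPM or more in every with-MK cell, Slc11a1 is spread from 0 to 2026 CPM, and Trf is at 0 in 11 of 20 with-MK cells.

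Fth1 (ENSMUSG00000024661.7) lies at chr19:9980598-9985098 on the plus strand of mm10. Its CPM was 3544 at the lowest, 10161 at the median and 36122 at the highest in with-MK cells, against 162, 1284 and 4023 in without-MK cells. The lowest with-MK cells were cell 1 and shallow cell 11, and these 2 fell below the highest without-MK cell, cell 9. Without that cell the groups would not overlap, since the other 23 without-MK cells all lay under the lowest with-MK cell, the highest of them at 2569 CPM. Accordingly 18 of 20 with-MK cells exceeded every without-MK cell.

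The Fth1 sums were 186340 reads in with-MK cells against 17058 in without-MK cells, which is 11915 and 1374 CPM, or 1.19% and 0.137% of all library reads. The ratio was 8.67 (95% exact binomial interval 8.54 to 8.81). Such intervals cover the counting error of reads only. As reads carry no molecular identifiers, they do not cover that of molecules. The spread between cells is far wider than that interval. Mean log2(CPM + 1) was 13.28 ± 0.88 in with-MK cells (SD over 20 cells) and 10.22 ± 0.96 in without-MK cells (SD over 24 cells), a difference of 3.06 that exceeds the SD of either group. Highest and lowest cells stood 10.2-fold apart in with-MK cells, against 24.8-fold apart in without-MK cells. Most of the wider range without megakaryocytes came from cell 21, which had 162 CPM where the next lowest cell had 603 CPM. No single cell carried the sum: with-MK cell 14 held 15.5% of its group's Fth1 reads and without-MK cell 11 held 10.2%.

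Slc11a1 (ENSMUSG00000026177.11) lies at chr1:74375195-74386062 on the plus strand. Its CPM was 0 at the lowest, 62.1 at the median and 2026 at the highest in with-MK cells, against 0, 0 and 18.6 in without-MK cells. With-MK cells ran from no read to high levels, and 7 of them passed 100 CPM. A read was found in 17 of 20 with-MK cells (85%, exact Clopper-Pearson 95% interval 62.1 to 96.8%), against 6 of 24 without-MK cells (25%, 9.77 to 46.7%). The 3 with-MK cells with none were cells 6, 15 and 20, none of them shallow. With at least 5 reads required, 14 of 20 with-MK cells remained, against 1 of 24 without-MK cells.

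Summed Slc11a1 reads were 4266 in with-MK cells against 21 in without-MK cells, a ratio of pooled CPM of 161 (105 to 261). The highest with-MK levels were 2026 CPM in cell 16, 1618 CPM in cell 7, 847 CPM in cell 17, 755 CPM in cell 10 and 662 CPM in cell 9. Cell 16 rests on 145 reads in a shallow library in which Malat1, a nuclear non-coding RNA, took 245233 CPM and the macrophage markers were the lowest of the group at 2710 CPM. Cell 7 alone held 33.1% of the group's Slc11a1 reads. Without it the with-MK level was 193 CPM and the ratio 114. In without-MK cells 13 of the 21 reads came from cell 21, the same cell that had the lowest Fth1. Some macrophage genes also had reads there: 5 of the 20 listed macrophage markers were read in at least as many without-MK cells as Slc11a1. Most were read in fewer, and the median over the 20 markers was 2 cells. Whether the Slc11a1 reads there came from those cells themselves was not tested.

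Trf (ENSMUSG00000032554.15) lies at chr9:103204001-103230444 on the minus strand and shares 26307 bases with the same-strand gene Gm20425, so reads of the 2 could be split or merged by the counting. Its CPM was 0 at the lowest, 0 at the median and 2384 at the highest in with-MK cells, against 0, 0 and 1.89 in without-MK cells. Trf was unread or nearly so in most cells of both groups and high in a few with-MK cells. A read was found in 9 of 20 with-MK cells (45%, 23.1 to 68.5%), of which 3 had a single read, against 1 of 24 without-MK cells (4.17%, 0.105 to 21.1%), also a single read. Trf passed the detection filter with exactly 10 cells.

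Summed Trf reads were 2855 in with-MK cells against 1 in without-MK cells, a ratio of 2266 whose counting interval ran from 406 to 89552. Cells 18 and 7 stood at 2384 and 1573 CPM, and cells 17, 11, 10 and 13 at 222, 159, 48.1 and 33.2 CPM. Cell 7 held 48.1% of the reads, and the 3 cells with most reads held 97.2%. Without cell 7 the with-MK level was 100.4 CPM and the ratio 1246. The size of the Trf ratio thus rests on a few cells, and 7 of 20 with-MK cells lay above the single without-MK cell with a read. Thinned to 310000 reads per cell, 5 of 18 with-MK cells kept a Trf read, against 0 of 22 without-MK cells, which by counting error alone allows a share of up to 15.4% (Clopper-Pearson), and at full depth 1 of 24 held its single read.

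Per kilobase of the same transcripts, pooled levels in with-MK cells were 12826 CPM for Fth1, 118 CPM for Slc11a1 and 71.0 CPM for Trf. In without-MK cells they were 1479 CPM for Fth1, 0.731 CPM for Slc11a1 and 0.0313 CPM for Trf. The order was thus the same in both groups, with the ferritin gene far above the transporter and the carrier. Slc11a1 and Trf, neighbours in that order, averaged 336 ± 576 CPM and 222 ± 618 CPM over with-MK cells (SD over 20 cells, not per kilobase). Their medians were 62.1 and 0 CPM. The means lie closer together than either SD, but both genes were measured in the same cells. Such SDs do not show their order within a cell. The coefficient of variation of CPM over with-MK cells was 66.4% for Fth1, 171% for Slc11a1 and 279% for Trf.

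Within the 20 with-MK cells the members went together only loosely. The Spearman correlation of CPM was 0.17 for Fth1 with Slc11a1, 0.38 for Fth1 with Trf and 0.34 for Slc11a1 with Trf. These cells share 1 plate and differ in depth, and the values describe these 20 cells only. Leaving out 1 cell at a time gave 0.05 to 0.29 for Fth1 with Slc11a1, 0.30 to 0.53 for Fth1 with Trf and 0.26 to 0.50 for Slc11a1 with Trf, the lowest value of each pair being the one without cell 7. Cell 7 ranked 2 of 20 for all 3 genes. Against that, cell 14 had the highest Fth1 and no Trf read, and cell 18 had the highest Trf with 3 Slc11a1 reads. Slc11a1 and Trf were both read in 8 with-MK cells, Slc11a1 alone in 9, Trf alone in 1 and neither in 2.

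**Figure D2:**
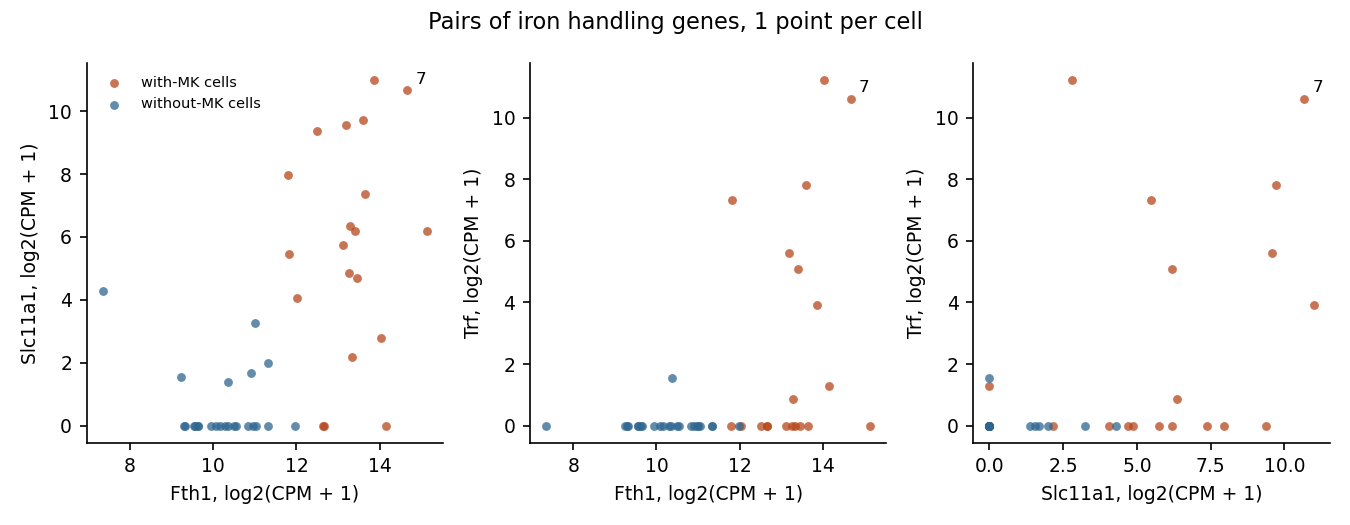
Pairs of members plotted against each other as log2(CPM + 1), 1 point per cell, for 20 with-MK and 24 without-MK cells, with with-MK cell 7 marked. In all 3 panels cell 7 lies near the upper right, and many with-MK cells high in one member are low or at 0 in the other.

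Library reads and marker content went little with Fth1 in with-MK cells, where its Spearman correlation was -0.05 with library reads and -0.11 with the macrophage marker sum. For Slc11a1 these were 0.24 and -0.12, and without the 2 shallow cells 0.44 and 0.03. For Trf they were -0.43 and 0.08, and without the shallow cells -0.32 and 0.17. In the 24 without-MK cells Fth1 had 0.03 with Slc11a1, which was read in only 6 of them, and -0.21 with library reads. The Pearson correlation of log2 levels of Fth1 with Slc11a1 there was -0.30.

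The gene whose CPM ran most like Fth1 over the 20 with-MK cells was Ccl4, a chemokine gene, with a Spearman correlation of 0.71. Bms1 (0.62), Rab6a (0.61), Gpnmb (0.59) and Lgmn (0.58) followed among 2167 genes read in 10 or more of these cells. Gpnmb encodes a transmembrane glycoprotein of macrophages and Lgmn the lysosomal protease legumain. The median over all candidates was -0.11 and the central 95% ran from -0.59 to 0.41. For Slc11a1 they were Mdm2 (0.69), Hmha1 (0.67), Fgfr1op2 (0.66), Elf1 (0.66) and Tatdn2 (0.65), against a median of -0.01. The central 95% for Slc11a1 ran from -0.45 to 0.43. Several of these genes were low, with with-MK medians of 4.80 CPM for Mdm2, 3.56 for Hmha1 and 8.92 for Tatdn2. Bms1 in the Fth1 list had a median of 1.09 CPM. Trf was read in too few with-MK cells for such a list. In without-MK cells Fth1 ran most like Eif4ebp1 (0.65), Rpl41 (0.64), Ndufs7 (0.61), Rn45s (0.61) and Chchd2 (0.61). The central 95% over the 2713 candidates there ran from -0.45 to 0.43. By Pearson correlation of log2 levels only 2 of the 5 genes stayed among the top 5 for Fth1 in either group, and 3 of 5 for Slc11a1 in with-MK cells.

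Ftl1 (chr7:45457944-45459884, minus strand) supplies the other ferritin subunit, and its CPM was 293, 3578 and 7620 at the lowest, median and highest in with-MK cells, against 298, 1075 and 1941 in without-MK cells. It too was higher with megakaryocytes, by 3.43-fold (3.36 to 3.49), with 18 of 20 with-MK cells above every without-MK cell. The lowest with-MK value, 293 CPM from 21 reads, was in cell 16. Reads of both ferritin genes are uncertain to the extent that the authors' counting gave some to their near-identical processed pseudogenes.

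The gap in Fth1 was wider than that in Ftl1. Per cell, log2 of Fth1 over Ftl1 was 0.51, 1.33 and 5.65 at the lowest, median and highest in with-MK cells, against -0.98, 0.33 and 1.51 in without-MK cells. The highest with-MK value was in shallow cell 16, whose Ftl1 rests on 21 reads, and it enters the mean and SD below. Fth1 reads outnumbered Ftl1 reads in all 20 with-MK cells, against 14 of 24 without-MK cells. The means were 1.65 ± 1.13 in with-MK cells against 0.18 ± 0.79 in without-MK cells (SD over 20 and 24 cells), and the ranges overlap. The Spearman correlation of the 2 genes was 0.45 over with-MK cells and 0.48 over without-MK cells. In with-MK cells it was 0.54 without the 2 shallow cells and 0.27 without the 2 cells farthest from the Fth1 median. The Pearson correlation of log2 levels was 0.25 over all 20 and 0.65 without the 2 shallow cells. A few cells thus set the size of these correlations.

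**Figure D3:**
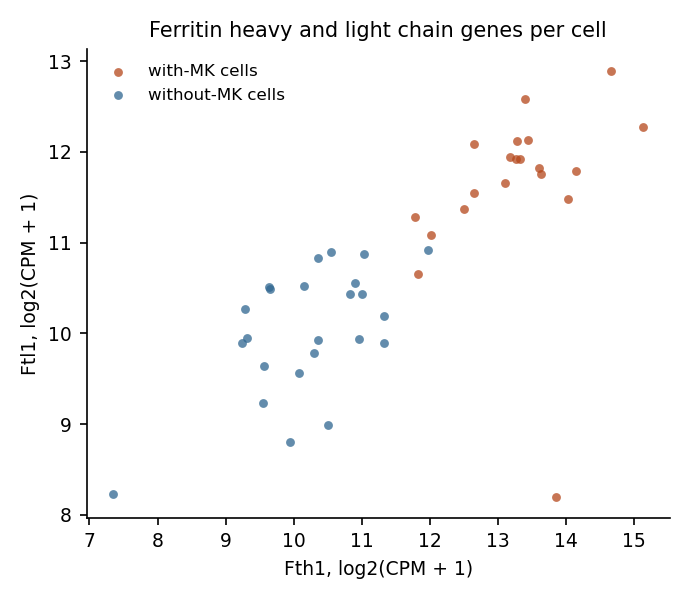
Ftl1 against Fth1 as log2(CPM + 1), 1 point per cell, for 20 with-MK and 24 without-MK cells. With-MK cells lie further along the Fth1 axis than along the Ftl1 axis, and the with-MK point at the bottom is shallow cell 16 with 293 CPM of Ftl1.

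Of 74 genes of iron and haem metabolism 25 were listed, and all 25 passed the detection filter. Beside the members, 22 remain, of which 6 (27.3%) were at least 2-fold higher in with-MK cells, 3 (13.6%) at least 2-fold lower and 13 (59.1%) less than 2-fold apart. Over all tested genes 24.4% were higher, 28.3% lower and 47.4% less than 2-fold apart. The median log2 ratio was 0.35 over the 22 and -0.14 over all tested genes. The share higher thus lay near that over all genes, and the share lower was smaller. Of the 25, 21 had the same sign in library-read, listed-read and median-ratio scaling, in mean log2 levels, without the top cells and without cell 7. Pcbp1, Urod, Fech and Fdx1 were the exceptions. The same share over all tested genes is not given, so the 21 are no mark of this list.

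**Figure D4:**
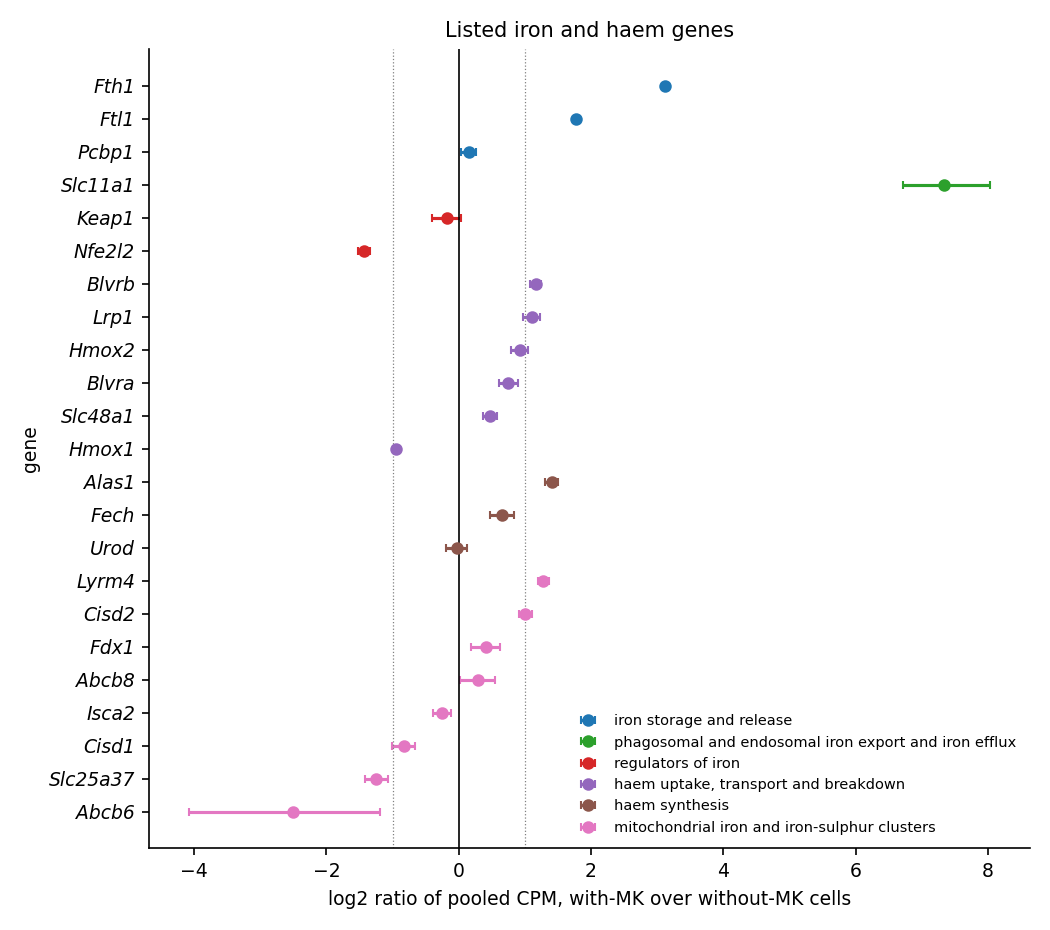
Log2 ratio of pooled CPM, with-MK over without-MK cells, for 23 listed genes of iron and haem metabolism grouped by role. Bars are exact 95% counting intervals, dotted lines mark 2-fold, and Trf, at 11.15, is left out for scale. Slc11a1 and Fth1 lie furthest right, and most other genes lie within or near 2-fold.

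Haem uptake and breakdown, the route by which macrophages gain iron from red cells, had 6 listed genes. Lrp1, which encodes the receptor for haem bound to haemopexin, was 2.15-fold higher in with-MK cells, and Blvrb, a biliverdin reductase gene, 2.24-fold. Slc48a1, which encodes the haem transporter HRG1, Hmox2 and Blvra were less than 2-fold apart. Hmox1, the inducible haem oxygenase gene that frees iron from haem, lay the other way. Its CPM was 0, 123.1 and 2216 at the lowest, median and highest in with-MK cells, against 0, 331 and 6322 in without-MK cells, a pooled ratio of 0.518 (0.503 to 0.533). Hmox1 ranges overlapped almost fully, and under listed-read scaling its log2 ratio of -0.95 became -1.21, past 2-fold. The same scaling took Lrp1 to 0.84 and Blvrb to 0.90 on the log2 scale, both under 2-fold, and without cell 7 they stood at 0.92 and 0.78.

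Haem synthesis had 4 listed genes, of which Alas1, the first enzyme of the route outside red cells, was 2.64-fold higher in pooled CPM in with-MK cells, while Urod was less than 2-fold apart. The Alas1 median was 19.7 CPM in with-MK cells against 23.8 CPM in without-MK cells, and 3 with-MK cells held 76.0% of its reads there. Fech, which puts iron into haem, was read in 1 of 20 with-MK cells, against 16 of 24 without-MK cells, and its pooled ratio rests on the 806 reads of that single with-MK cell. Of 8 mitochondrial iron and iron-sulphur genes, Lyrm4 (2.43-fold) and Cisd2 (2.01-fold) were higher in with-MK cells, with Cisd2 at 0.74 on the log2 scale, under 2-fold, by listed reads. Slc25a37, the mitoferrin gene, was 2.37-fold lower and Abcb6 5.67-fold lower, the last on 6 and 27 reads. Nfe2l2, which encodes NRF2, a transcription factor with ferritin genes among its targets, was 2.70-fold lower in with-MK cells, and its partner Keap1 was less than 2-fold apart.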

How the data were processed

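Single-cell RNA was measured in 44 cells of 2 groups. The submitters' processing notes name mm10 and Seurat. For aligner, counter and annotation, the entry is: not given in the sources used here. The deposited values are a signal of the form reads × 1e+09 / (library reads × a whole number fixed per gene), worked out from the values. The most frequent value of a cell gave its library reads (within 0.00382 of whole numbers), and with the smallest divisor of each gene the 99807 nonzero values all came out as whole reads (tolerance 0.0001). Even reads made up 36.0 to 50.7% of each cell's values, where a doubled library estimate would give only even ones. The recovery was tested on simulated data. Its first version doubled or halved the library reads of some simulated cells and was corrected, which changed no value of the real cells. The outcome of the corrected version on simulated data is not reported here. The divisors were 32329 for Fth1, 700 for Slc11a1 and 1 for Trf, which leaves the deposited values comparable between cells but not between genes.

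The design had assumed counts, and sums of recovered reads were used; no count model was fitted and no p-value made. Ratios of pooled CPM have exact binomial and shares Clopper-Pearson 95% intervals. Genes read in 10 or more of 44 cells were set against a 2-fold gap. A group with no read was set at a floor of 3 reads. The most alike genes were the 5 with the highest Spearman correlation of CPM, passing over predicted genes. No cell was removed and no doublet caller run. Alternatives were other scalings, thinning, detection limits and cells left out, of which leaving out with-MK cell 7 was added after seeing the data. 1 gene of the iron and haem list enters the counts and is not reported here. The members and gene lists were chosen with earlier results of these data known. Versions were Python 3.11.15, numpy 2.4.6, pandas 2.3.3, scipy 1.17.1 and matplotlib 3.10.9.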

Additional observations from a re-analysis of the deposited data

How the results depend on the processing

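Of 78 values recomputed under alternatives, 60 stayed within their interval or spread, 18 moved and 0 changed direction. Shares of cells and counts of genes among them cannot fall below 0, so only the ratios, level differences and correlations could change direction. The correlations without with-MK cell 7 are themselves the lowest values from leaving out 1 cell at a time. Their place among the 60 thus carries no weight. The log2 ratio of Fth1, 3.12, was 2.86 scaled by listed reads, 3.21 by median ratios, 3.06 thinned to 310000 reads, 3.02 without the top cell of each group, 3.06 from deposited means and 3.01 without with-MK cell 7. All lie outside its counting interval, which is narrow. Without the top cells Slc11a1 was 8.14 (main value 7.33) and Trf 8.64 (11.15), the last a lower bound set by the floor of 3 reads. The without-MK share with Slc11a1 was 4.17% at 5 reads and at 10 CPM, and that with Trf was 0 at 5 reads, at 10 CPM and after thinning. Spearman correlations in with-MK cells were also taken without the 2 cells farthest from the median of the first gene. They were 0.013 for Fth1 with Slc11a1, 0.41 for Fth1 with Trf and 0.19 for Slc11a1 with Trf. Over all with-MK cells Fth1 with Trf had a Pearson correlation of log2 levels of 0.29. Iron and haem genes at least 2-fold lower numbered 5 under listed-read scaling and 8 by mean log2 levels, against 3. Those at least 2-fold higher numbered 6 under both, against 9, and the 6 still counted among the 60. These counts include the 3 members, which were chosen by name. By mean log2 levels, 2362 of all 3271 tested genes were lower in with-MK cells by any amount. For the iron and haem genes this was 12 of 25. The median difference was -1.10 over all tested genes and 0.20 over the iron and haem genes. Shares of all tested genes past 2-fold under these settings are not given, so the 2-fold counts are not read as a mark of the list. The median log2 ratio of all tested genes was -0.14 by library reads, -0.40 by listed reads and -0.05 by median ratios. The cause of these shifts was not tested. No paired analysis was possible because the cell numbers only name cells and each group is 1 sample.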
